A study of Mus musculus with 24 samples.

Results

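LLC1 is an established mouse lung carcinoma cell line. This comparison asks what the chemotherapy pair cisplatin and pemetrexed changed at 24 h in LLC1 cells that were also given trametinib. Its members were the 3 libraries of the combination (cisplatin at 2.5 µM, pemetrexed at 2.5 µM and trametinib at 10 nM) and the 3 libraries of trametinib alone at 10 nM, 6 of the 24 libraries of the series. Trametinib was thus in both groups, and the difference between them is the chemotherapy pair. Further groups at 24 h were untreated cells in 0.1% DMSO and cells given cisplatin and pemetrexed without trametinib, and the same 4 treatments were also sampled at 6 h, with 3 libraries in each of the 8 groups. Nothing in the labels tells separate cultures from repeat libraries of 1 culture, so p-values reflect only how these libraries vary, and that variation may be technical.

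Cisplatin forms platinum adducts and crosslinks in DNA, and pemetrexed is an antifolate that inhibits thymidylate synthase and other enzymes that use folates. Damaged or under-supplied forks activate checkpoint kinases and p53, a transcription factor that induces genes of cell cycle arrest, repair and death. Trametinib inhibits MEK, the kinase that activates ERK, and ERK output includes growth factor ligands and feedback phosphatases.

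Each library holds poly(A) RNA measured as TPM, the length-scaled share of each transcript in the library, summed here per gene. TPM totals were 1000000 in every library by construction, so sequencing depth is unknown, and 11242 to 11851 genes reached 1 TPM in a library. Pearson correlations of log2(TPM + 1) over genes were 0.985 to 0.992 between libraries of 1 group and 0.967 to 0.975 between the 2 groups. All 8 markers of LLC1 carcinoma and keratin genes had a mean of at least 1 TPM. Markers of T and NK cells, B cells, lung epithelium and red cells did not reach that mean. The macrophage list summed to 13.5 to 15.7 TPM with trametinib and 31.1 to 35.7 TPM with the combination; Cd68, Cd14 and Lyz2 made up most of it, while Adgre1, Tyrobp and Ptprc were at 0 in all 6 libraries. The fibroblast list summed to 28.4 to 29.3 TPM and 42.9 to 47.7 TPM, with Thy1 at or near 0; Dcn made up most of the change (11.7 and 27.8 TPM on average), while Pdgfra (8.61 and 7.80 TPM) and Col1a1 (5.70 and 5.59 TPM) showed no such increase in mean level. The endothelium list summed to 3.55 to 4.49 TPM and 5.34 to 6.95 TPM, nearly all of it Pecam1, with Cdh5 at 0. The part of these markers in the results was not tested.

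Many genes differed in level when chemotherapy was added to trametinib. In such bulk samples fewer cells of a kind and less RNA per cell cannot be told apart. Of 12581 genes tested with limma, 3948 were higher (31.4%) and 2260 were lower (18.0%) at a Benjamini-Hochberg adjusted p under 0.05, and 288 of the higher and 99 of the lower genes differed by more than 2-fold. The share of calls that were higher was 63.6%, and it was 51.0% (3282 higher, 3147 lower) after libraries were rescaled by a median ratio, since the median of all genes moved from 0.064 to -0.007. The series' own rule, a Bonferroni adjusted p under 0.10, left 2004 genes (15.9%). Libraries of the groups did not overlap for 4490 genes that were higher (35.7%) and 2763 that were lower (22.0%).

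Over all genes tested the differences ran from -5.455 to 5.837, and the genes at both ends were processed pseudogenes with wide scatter between libraries, which share sequence with their parent genes and were not ranked. Among called protein-coding genes at 5 TPM or more whose groups did not overlap, the 12 largest rises were led by Pmaip1, which encodes the p53-induced BH3-only death protein NOXA. Pmaip1 stood at 1.38, 1.34 and 1.31 TPM with trametinib and at 31.6, 28.6 and 36.1 TPM with the combination. The rule required groups that do not overlap, so this separation is not a further result. The difference was 3.81 ± 0.10 (SE, log2(TPM + 1) scale, limma adjusted p 4.96e-16). The stress transcription factor gene Atf3 (chr1:191170296-191218039, GRCm38) rose from 5.86, 5.21 and 5.15 to 58.1, 61.5 and 64.7 TPM, a difference of 3.29 ± 0.09 (SE). Anxa8 (3.11), Cxcl10 (2.91), Crip2 (2.80), Areg (2.63), Slc16a6 (2.62), Dusp1 (2.54), Ass1 (2.54), Ccl7 (2.45) and Mmp3 (2.45) followed in log2 difference. Bglap2 was listed at 0 in the trametinib libraries and at 8.58, 6.13 and 5.70 TPM with the combination; it has near-identical copies, so its share of reads is uncertain.

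By the same rule the largest falls were of H1f0, a replacement linker histone gene, and Acta2, the smooth muscle actin gene. H1f0 (chr15:79028450-79030504) went from 404, 436 and 450 TPM to 72.4, 74.4 and 60.9 TPM, a difference of -2.62 ± 0.06 (SE). Acta2 (chr19:34241090-34255590) went from 162, 138 and 123 TPM to 25.3, 29.1 and 20.6 TPM, a difference of -2.45 ± 0.10 (SE). In both genes every combination library lay below every trametinib library, which the rule required. The cadherin gene Cdh13 (-2.10), Gtdc1 (-1.89), the small proteoglycan gene Aspn (-1.73), Cmss1 (-1.64), Slc9a9 (-1.63), Msra (-1.62), the glypican gene Gpc6 (-1.61), Ogn (-1.60), Hist1h1c (-1.54) and Cpq (-1.49) followed.

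**Figure D1:**
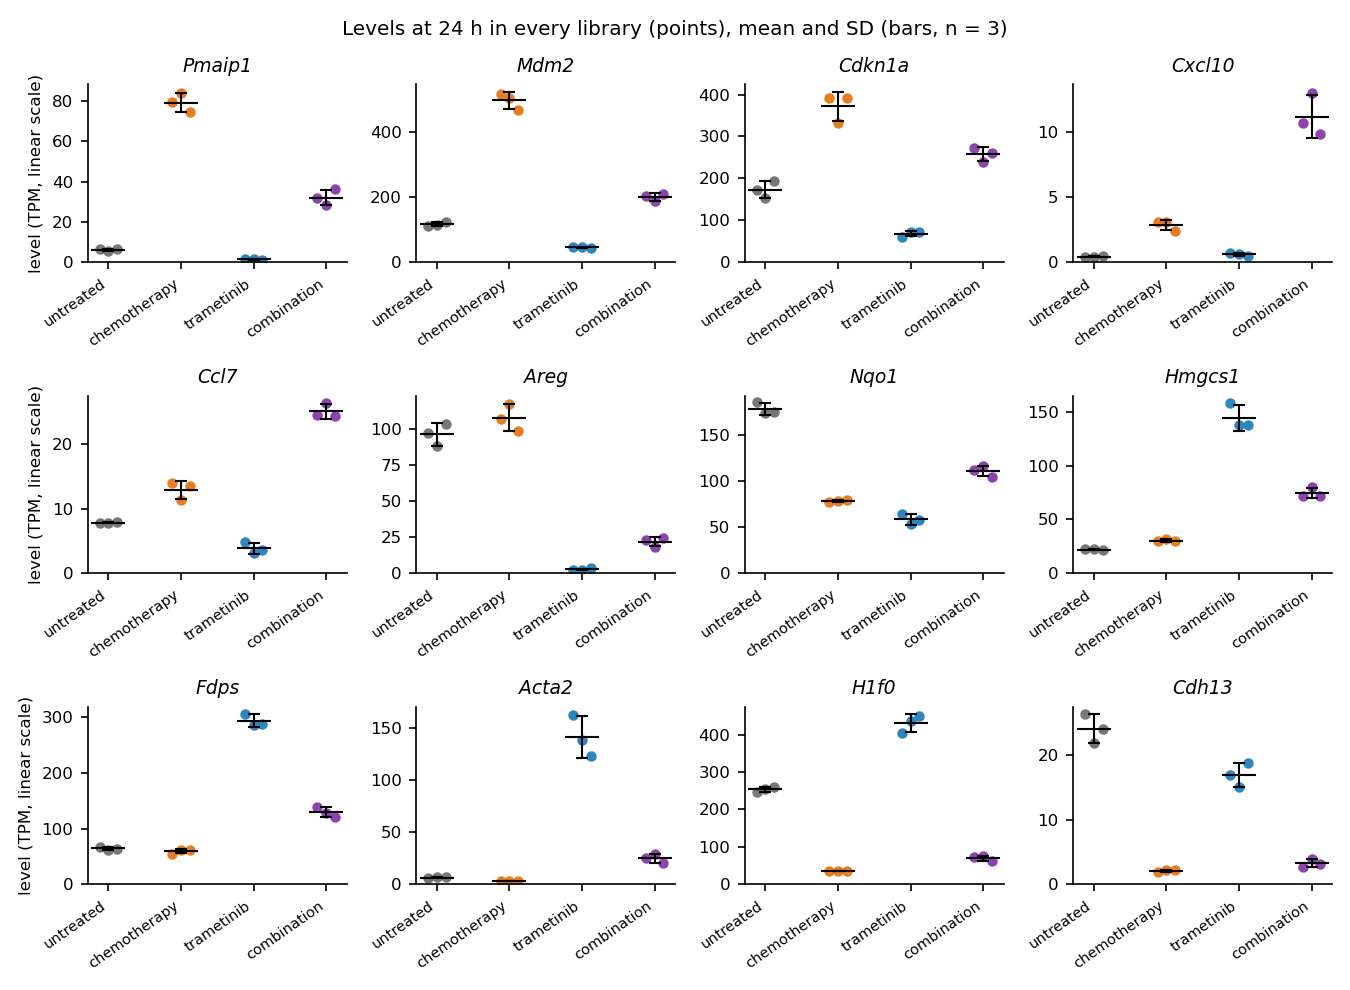
TPM (linear axis) of 12 genes in the 4 groups at 24 h, with 1 point per library and the mean and SD of 3 libraries as bars. Pmaip1 and Cxcl10 are higher in the combination than with trametinib alone; Hmgcs1, Fdps and Acta2 are lower in the combination than with trametinib alone and still above untreated cells.

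p53 targets rose together. Of 41 targets listed, 38 were tested. Of these, 33 were higher and 2 lower, against 31.4% and 18.0% of all genes tested. The median difference was 1.05, against 0.064 over all genes tested. All 10 tested targets with a role in death were higher, as were 13 of 14 in arrest and feedback. Mdm2 (chr10:117688875-117710758), which encodes the ubiquitin ligase that degrades p53, rose from 47.9, 45.4 and 45.0 TPM to 203, 188 and 211 TPM (2.10 ± 0.09, SE). Cdkn1a (chr17:29090976-29100727), encoding the CDK inhibitor p21, rose from 61.2, 71.1 and 72.4 TPM to 272, 239 and 260 TPM (1.90 ± 0.12, SE). Neither gene had overlapping libraries. Btg2 (2.35), Ccng1 (1.67) and Ckap2 (1.34) were higher too. The 2 lower targets were Sesn1 at -0.25, and Xpc at -0.16, whose call was lost in 7 of the alternatives tried besides Bonferroni adjustment. Levels of Mdm2 under trametinib alone were below those of untreated cells: it averaged 117 ± 6.25 TPM in untreated cells, 46.1 ± 1.56 with trametinib and 201 ± 11.8 with the combination (SD, n = 3).

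The p53 response was also present without trametinib, where 27 of the 38 targets were higher and the median was 0.81; 59.2% of all genes tested were called there (34.9% higher, 24.3% lower). The difference between the responses with and without trametinib was tested directly, in a contrast whose sides share no library. Over all genes it called 2040 higher (16.2%) and 1957 lower (15.6%), and among the p53 targets 14 higher and 7 lower. For Pmaip1 the difference of differences was 0.31 ± 0.13 (SE, limma adjusted p 0.0868). That call turned with a pseudocount of 0.1 TPM (0.79) and without replicate 2 of the combination (0.39). At 6 h, 29 targets were higher on trametinib, with a median of 0.49, against 12.3% of all genes higher and 6.53% lower. The difference at 24 h was larger than at 6 h for 27 targets, against 19.1% of all genes tested.

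Of 10 BCL2 family genes 4 were higher and 3 lower, near the shares over all genes tested (31.4% and 18.0%), so the count says nothing about the family. The death gene Bcl2l11, encoding BIM, rose from 7.99, 8.85 and 9.88 TPM to 15.1, 15.9 and 15.5 TPM (0.74 ± 0.09, SE). Bid (0.69), Bak1 (0.32) and the survival gene Bcl2l1 (0.38) were the other higher members. Mcl1 stood at 82.2, 75.5 and 83.4 TPM and at 78.6, 81.6 and 72.2 TPM, with overlapping libraries. The lower members Bmf (-0.53), Bcl2 (-0.35) and Bok (-0.29) each lost the call when certain single libraries were left out. Among death receptors, caspases and necroptosis genes 8 of 20 were higher and 4 lower, or 7 and 7 after rescaling, again near the 31.4% and 18.0% of all genes. The pore-forming gasdermin gene Gsdmd (0.80), the initiator caspase gene Casp8 (0.53) and the necroptosis effector gene Mlkl (0.42) were higher, and Casp12 (-0.56) and Casp9 (-0.38) were lower.

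Most listed genes of DNA replication and of mitosis were higher with chemotherapy. Over all genes tested 31.4% were higher and 18.0% lower. Among S phase and E2F targets 42 of 49 were higher and 1, Rbl1, was lower (median 0.67), a call lost without replicate 1 of the trametinib group; all 16 genes of origin licensing were higher. The helicase subunit gene Mcm3 rose from 179, 161 and 178 TPM to 319, 318 and 333 TPM (0.90 ± 0.05, SE). Cdc6, which loads that helicase, rose by 1.503, and Cdc45 by 1.18. Among G2 and mitosis genes 41 of 45 were higher and 2 lower (median 0.46). The kinesin gene Kif20a stood at 84.8, 77.2 and 82.6 TPM with trametinib and at 171, 171 and 162 TPM with the combination, without overlap. Aurka (0.72), Cdc25b (0.84), Birc5 (0.57) and the cyclin gene Ccnb1 (0.52) were higher as well. Cdk1 was higher by 0.19, a call that was lost in 6 alternatives besides Bonferroni adjustment, rescaling among them. Cenpf (-0.47) and Aspm (-0.25) were the lower members, and the call of Aspm was lost in 5 alternatives besides Bonferroni adjustment.

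The mitotic genes behaved differently at the earlier time. On trametinib at 6 h chemotherapy left 3 of the 45 higher and 29 lower, with a median of -0.49. Of all genes tested 12.3% were higher there and 6.53% lower. Tested directly, the difference at 24 h exceeded that at 6 h for 41 of the 45 genes, against 19.1% of all genes tested. Kif20a averaged 125 ± 6.07 TPM with trametinib at 6 h and 77.5 ± 2.39 TPM with the combination at 6 h (SD, n = 3), and the change between times was 1.72 ± 0.06 (SE, limma adjusted p 1.61e-12). Without trametinib at 24 h, 15 of the 45 were higher and 12 lower, near the 34.9% and 24.3% of all genes tested. In the direct test 31 of the 45 had a larger difference with trametinib than without it, against 16.2% of all genes tested. The S phase genes took the opposite course in that contrast, with 20 of 49 smaller and 5 larger with trametinib, against 15.6% and 16.2% of all genes tested. Rpa2, a subunit of the single-strand DNA binding complex, differed by -0.75 ± 0.07 (SE).

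**Figure D2:**
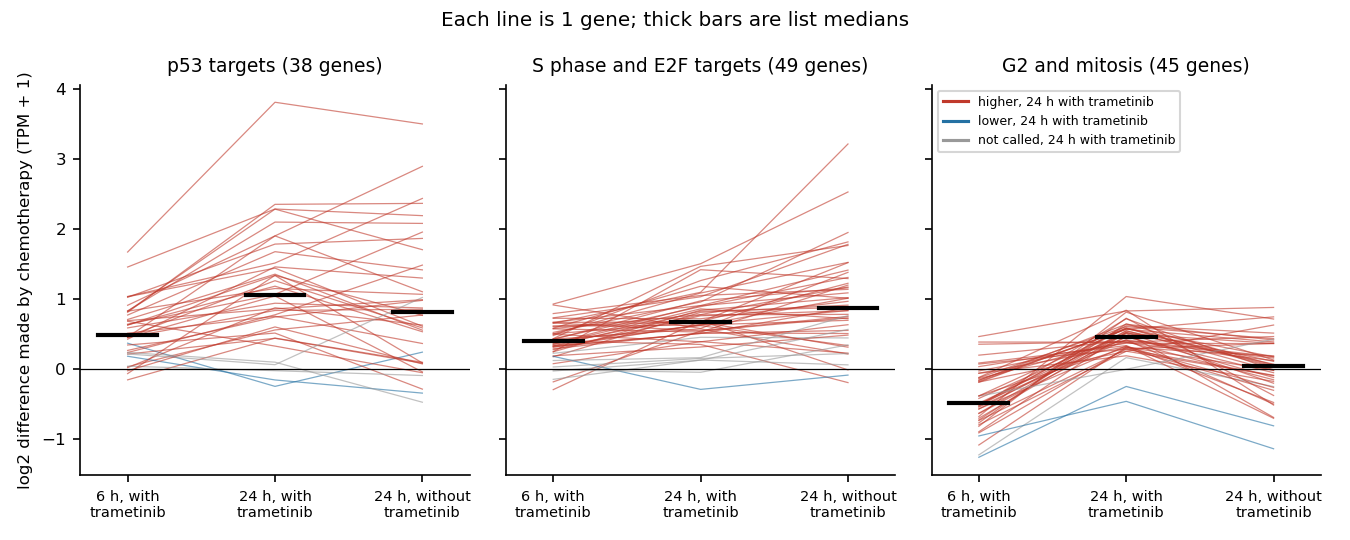
Log2 difference made by chemotherapy, log2(TPM + 1) scale, for each gene (lines) of 3 lists on trametinib at 6 h, on trametinib at 24 h and without trametinib at 24 h; thick bars are list medians. The median of the mitotic genes goes from -0.49 at 6 h to 0.46 at 24 h, and the p53 targets have medians above 0 in all 3 comparisons.

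Most listed repair genes were higher, though not those of excision repair and translesion synthesis. Of 51 DNA damage repair genes, 35 were higher and 4 lower (median 0.42), against 31.4% and 18.0% of all genes tested. Of the crosslink and homologous recombination genes 17 of 21 were higher (median 0.550), and of the checkpoint genes 11 of 14 (median 0.565). Of 16 excision repair and translesion synthesis genes 7 were higher and 2 lower. Their median was 0.096, close to the 0.064 of all genes tested. Timeless, which encodes a fork protection factor, rose from 43.1, 31.6 and 33.8 TPM to 76.2, 77.7 and 74.2 TPM without overlap (1.06 ± 0.09, SE). Eme1 (0.93) and Topbp1 (0.87) were higher too. Fanca was higher by 0.23, a call lost in 3 alternatives besides Bonferroni adjustment: it was 0.153 without replicate 2 of the trametinib group (limma adjusted p 0.0664). H2afx (-1.138), Fancl (-0.55), Ung (-0.43) and Ercc1 (-0.32) were lower, and the calls of Ung and Ercc1 were lost without single combination libraries. Among folate and nucleotide genes 19 of 38 were higher and 3 lower, read against the same 31.4% and 18.0%. After rescaling 18 were higher and 8 lower, when 3282 and 3147 of all 12581 genes were. The pemetrexed targets Tyms (0.42) and Gart (0.68) were higher, as was Rrm2 (0.83). The mitochondrial folate gene Mthfd1l fell from 77.6, 79.5 and 87.5 TPM to 40.4, 38.5 and 36.2 TPM (-1.07 ± 0.06, SE), and the folate transporter gene Slc46a1 fell by 1.08. Of 18 histone genes listed, 14 were under the level filter and the 4 tested were lower. H1f0 and Hist1h1c lead them, and the calls of Hist1h2bc and Hist2h2be were lost in 4 and 3 alternatives besides Bonferroni adjustment. Many histone genes have near-identical copies, and the values of those genes are uncertain. Libraries held poly(A) RNA, and the part of that selection in the histone values was not tested.

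Most chemokine genes that passed the level filter were higher. Of 23 listed, 13 passed the filter and 10 of those were higher and none lower, with a median of 1.246; the other 10 were under the filter, and since a gene can pass through the group where it is high, this count and median only describe the members that passed. The median is the value of Cxcl2, which passed through the combination libraries alone, and 4 members were higher among genes with a mean of 5 TPM or more. Cxcl10 (chr5:92346638-92348889) encodes a ligand of CXCR3, a chemokine receptor on T cells. It stood at 0.733, 0.617 and 0.486 TPM with trametinib and at 10.7, 13.0 and 9.82 TPM with the combination (2.91 ± 0.12, SE). Without trametinib it went from 0.414 ± 0.0367 to 2.85 ± 0.367 TPM (SD, n = 3), and the difference of differences was 1.47 ± 0.16 (SE, limma adjusted p 1.76e-06). The monocyte attractant gene Ccl7 rose from 4.79, 3.11 and 3.62 TPM to 24.5, 26.4 and 24.4 TPM (2.45 ± 0.13, SE). The neutrophil attractant gene Cxcl1 rose from 10.1, 10.3 and 9.34 TPM to 37.1, 42.9 and 48.6 TPM (2.00 ± 0.12, SE). Cxcl2 stayed under 2 TPM in every library, at 0.0767, 0.0717 and 0.0300 TPM and at 1.36, 1.63 and 1.56 TPM. None of the 4 genes had overlapping libraries, and 35.7% of all genes tested were higher without overlap. For Cxcl10 and Ccl7 the rule for the largest rises required this, and for Cxcl2 it follows from the level filter.

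Promoters were read from RefSeq (GRCm38.p6) as the 250 bases before the annotated start, for 3 of these chemokine genes and for Isg15, an interferon-stimulated gene described after them. They were picked after matches in many promoters had been looked at, because they hold a match, so they show where the motifs lie and not how often. Capitals mark the match on either strand to the interferon response motif (ISRE: GAAA, any 2 bases, GAAA) for Cxcl10 and Isg15, and to the kappaB-type motif (GGG, any 2 bases, TTTCC) for Cxcl1 and Cxcl2. In Isg15 the matches overlap. The windows are chr5:92348890-92349139 on the minus strand, chr4:156200819-156201068 on the minus strand, chr5:90890995-90891244 on the plus strand and chr5:90903649-90903898 on the plus strand, each written 5′ to 3′.
Cxcl10: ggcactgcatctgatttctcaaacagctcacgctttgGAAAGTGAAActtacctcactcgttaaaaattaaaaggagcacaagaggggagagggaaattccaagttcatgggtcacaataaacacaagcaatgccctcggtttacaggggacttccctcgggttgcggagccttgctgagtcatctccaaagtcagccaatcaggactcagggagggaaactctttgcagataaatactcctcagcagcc
Isg15: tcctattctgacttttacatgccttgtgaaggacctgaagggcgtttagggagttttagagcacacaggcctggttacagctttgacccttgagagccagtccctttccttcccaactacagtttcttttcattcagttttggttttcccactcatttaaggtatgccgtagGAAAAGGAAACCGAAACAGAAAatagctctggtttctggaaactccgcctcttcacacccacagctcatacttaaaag
Cxcl1: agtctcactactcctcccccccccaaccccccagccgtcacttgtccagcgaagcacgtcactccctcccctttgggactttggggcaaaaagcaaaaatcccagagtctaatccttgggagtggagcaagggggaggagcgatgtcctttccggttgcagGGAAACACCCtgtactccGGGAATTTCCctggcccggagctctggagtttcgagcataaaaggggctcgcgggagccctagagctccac
Cxcl2: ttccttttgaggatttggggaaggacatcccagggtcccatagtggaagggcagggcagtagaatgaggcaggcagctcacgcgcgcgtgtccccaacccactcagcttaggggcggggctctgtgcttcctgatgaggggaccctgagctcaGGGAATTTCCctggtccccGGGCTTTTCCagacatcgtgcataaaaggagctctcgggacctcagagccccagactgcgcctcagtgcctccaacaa
The Cxcl10 match begins 213 bases before the start, those of Cxcl1 begin 89 and 71 bases before it and those of Cxcl2 97 and 78 bases before it. The kappaB-type motif was in 4 of the 9 tested chemokine genes with a promoter entry and in 5 of 14 genes of the NF-kB list, against 1.80% of all genes tested that had an entry. The interferon motif was in 12 of 31 interferon-stimulated genes, against 3.03% of all. Among genes called higher the shares were 2.54% and 3.29%, and among genes called lower 1.51% and 2.55%. The CHR motif TTTGAA was in 12 of 36 G2 and mitosis genes, against 12.5% of all, and the E2F motif TTTNNCGC in 14 of 39 S phase genes, against 8.47%. A further 2 motifs were searched after values had been seen: TCACNCCAC (SRE) was in 1 of 16 cholesterol genes against 1.21% of all, and TGACNNNGC (ARE) in 5 of 16 NRF2 targets against 13.9%. A match describes the letters of the window and is not a binding site.

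Interferon-stimulated genes moved less. Of 54 listed, 38 passed the level filter. Of these, 19 were higher and 5 lower (median 0.14), against 31.4% and 18.0% of all genes tested. After rescaling 15 were higher. Ifi35 (0.70), the galectin ligand gene Lgals3bp (0.75), the transcription factor gene Irf1 (0.51) and Ifitm3 (0.45) were higher, and Trim21 (-0.40), Parp12 (-0.34), Rtp4 (-0.37) and Stat2 (-0.33) were lower, the last of these not without replicate 3 of the combination. Isg15 stood at 5.47, 6.44 and 5.70 TPM and at 8.98, 8.50 and 7.88 TPM (0.46 ± 0.18, SE), and its call was lost in 8 alternatives besides Bonferroni adjustment. Without trametinib 27 of the 38 were higher and none lower (median 0.58), against 34.9% and 24.3% of all genes tested. The direct test found a smaller difference with trametinib for 20 of the 38 and a larger one for none of them, against 15.6% and 16.2% of all genes tested. A smaller difference is not a lower level. Mean levels in untreated cells, with chemotherapy, with trametinib and with the combination were 10.3, 25.8, 31.3 and 44.9 TPM for Irf1. They were 1.94, 2.00, 6.73 and 4.86 TPM for Trim21. Ifitm3 went the other way under trametinib alone, at 664, 1112, 450 and 613 TPM. The 5 interferon genes listed were under the filter. Of 14 receptor and signalling genes, 3 were higher, against 31.4% of all genes tested: Irf2 (0.69), Irf5 (0.99) and Ifngr2 (0.43).

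Antigen presentation, sensing and NF-kB lists are read against the 31.4% of all genes tested that were higher and the 18.0% that were lower. A gene can pass the level filter through the group where it is high, so these counts only describe the members that passed. Among MHC class I genes 11 of 19 were higher and 2 lower. B2m, the light chain of class I molecules, rose from 530, 520 and 518 TPM to 726, 716 and 717 TPM (0.46 ± 0.04, SE). H2-D1 was higher by 0.51, and H2-K1 stood at 20.8, 21.4 and 22.3 TPM and at 22.8, 24.0 and 20.97 TPM; these class I genes share sequence and are uncertain. Of 16 nucleic acid sensing genes 10 were higher, a count that was 6 after rescaling and 6 without replicate 2 of the trametinib group. The RNA-sensing adaptor gene Mavs (0.26) and Tmem173, which encodes STING (0.32), were among them. Of 17 NF-kB genes 11 were higher and 1 lower, and 8 more were under the filter. Among the 12 with a mean of 5 TPM or more 7 were higher. Tnfaip3, encoding the feedback inhibitor A20, rose from 0.960, 0.853 and 0.997 TPM to 6.22, 6.27 and 6.71 TPM (1.93 ± 0.07, SE), while the subunit gene Nfkb1 fell by 0.46. Among checkpoint and NK ligands 9 of 14 were higher and 1, Vcam1, was lower, and 7 more were under the filter. With a mean of 5 TPM or more 5 of 7 were higher. Cd274, encoding PD-L1 (0.69), the receptor ligand gene Pvr (0.69) and Raet1d (0.80) were among the 9.

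Secreted factors and ERK output genes included some of the larger rises, against the same shares over all genes. Of 16 genes of the IL-6 family and secreted factors 11 were higher and none lower, and 7 more were under the level filter. A gene can pass the filter through the group where it is high, so this count only describes the members that passed. Among the 11 with a mean of 5 TPM or more 6 were higher. Lif rose from 1.74, 2.07 and 2.07 TPM to 11.1, 11.6 and 14.0 TPM (2.16 ± 0.12, SE), and the collagenase gene Mmp13 was higher by 1.35. The prostaglandin synthase gene Ptgs2 rose from 19.0, 15.5 and 18.2 TPM to 85.2, 94.7 and 97.9 TPM (2.34 ± 0.11, SE). Of 32 ERK output genes 18 were higher and 3 lower: the EGF receptor ligand genes Areg (2.63), Hbegf (1.67) and Ereg (1.56) and the phosphatase genes Dusp1 (2.54), Dusp4 (1.142) and Dusp5 (0.83) were higher, and Spred3 (-0.72), Spry1 (-0.67) and Spry2 (-0.45) were lower. Of the 21 transcription factor and ligand genes 14 were higher (median 0.729). Of the 11 feedback genes 4 were higher and 3 lower (median 0.025). Dusp6 stood at 40.7, 43.5 and 50.6 TPM and at 44.7, 40.8 and 51.6 TPM. The rises did not return Areg to its level in untreated cells: Areg averaged 96.2 ± 7.85 TPM in untreated cells, 2.68 ± 0.484 with trametinib and 21.8 ± 2.98 with the combination (SD, n = 3). Without trametinib Areg differed by 0.16, and the difference of differences was 2.47 ± 0.15 (SE, limma adjusted p 1.2e-09). Dusp1 had another pattern. It averaged 3.38 ± 0.264 TPM in untreated cells, 5.73 ± 0.344 with trametinib and 38.2 ± 1.69 with the combination (SD, n = 3). Without trametinib chemotherapy raised Dusp1 by 2.19.

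Cholesterol synthesis genes fell together. Of 23 tested, 22 were lower and none higher (median -0.88), against 18.0% of all genes tested that were lower. Hmgcs1 (chr13:119690379-119708260), an early enzyme of the pathway, fell from 158, 138 and 138 TPM to 72.0, 80.2 and 71.4 TPM (-0.95 ± 0.08, SE). Fdps fell from 307, 286 and 288 TPM to 139, 128 and 121 TPM (-1.18 ± 0.08, SE). Combination libraries lay below all trametinib libraries in both. Sqle (-1.08), Nsdhl (-1.03) and Idi1 (-0.82) were lower too. Levels under trametinib alone were above those of untreated cells: Hmgcs1 averaged 22.0 ± 0.760 TPM in untreated cells, 145 ± 12.0 with trametinib and 74.6 ± 4.93 with the combination (SD, n = 3).

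The fall was not shared by cells without trametinib. There 9 of the 23 genes were higher and 5 lower (median -0.01), near the 34.9% and 24.3% of all genes tested. The direct test called the difference lower with trametinib for 19 of 23, against 15.6% of all genes tested. Nsdhl, a sterol dehydrogenase gene, gave a difference of differences of -0.95 ± 0.08 (SE, limma adjusted p 5.99e-08). On trametinib at 6 h the median was 0.10, and the difference at 24 h was lower than at 6 h for 22 of 23, against 12.2% of all genes tested.

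NRF2 targets also differed with the background. On trametinib 12 of 22 were higher and 3 lower (median 0.19), against 31.4% and 18.0% of all genes tested. After rescaling 8 were higher and 4 lower, when 3282 and 3147 of all 12581 genes were. Nqo1, a quinone reductase gene, rose from 64.5, 53.3 and 57.8 TPM to 112, 116 and 105 TPM (0.92 ± 0.07, SE). Hmox1 (1.39), Gsta4 (0.90), Gclc (0.52) and Nfe2l2, the gene of NRF2 itself (0.47), were higher; Gstm1 (-0.26), Keap1 (-0.24) and Slc48a1 (-0.13) were lower, and the calls of Keap1 and Slc48a1 were lost in 6 alternatives each besides Bonferroni adjustment. Without trametinib 2 of the 22 were higher and 16 lower (median -0.48), against 34.9% and 24.3% of all genes tested. In the direct test 19 of the 22 had a higher difference with trametinib, against 16.2% of all genes tested. Nqo1 averaged 179 ± 6.72 TPM in untreated cells and 78.4 ± 0.918 TPM with chemotherapy alone (SD, n = 3), a difference of differences of 2.10 ± 0.10 (SE, limma adjusted p 7.03e-11).

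**Figure D3:**
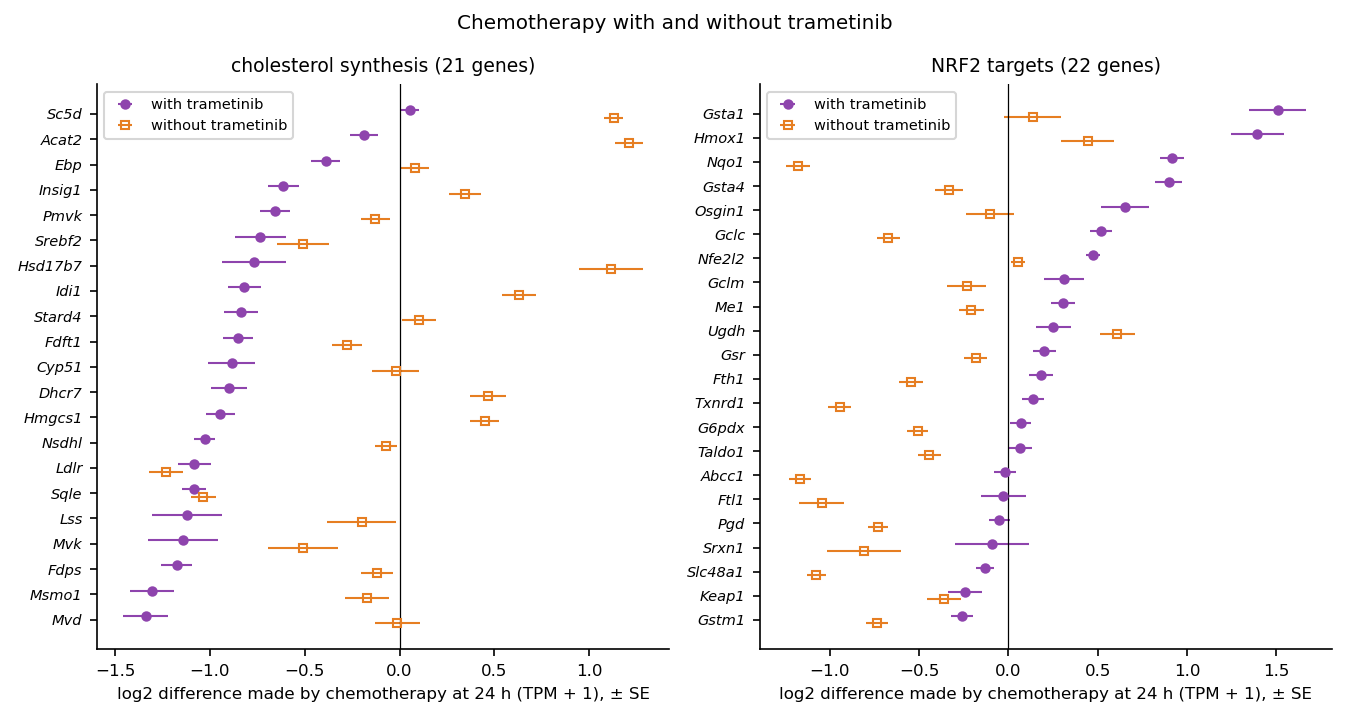
Log2 difference made by chemotherapy at 24 h, log2(TPM + 1) scale, with its SE, for tested genes of 2 lists, with trametinib (filled circles) and without it (open squares). Of the 21 cholesterol genes shown 20 are called lower with trametinib; of the NRF2 targets 16 of 22 are called lower without it.

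Amino acid stress genes included rises and falls. Of 35 ATF4 response genes 9 were higher and 12 lower, or 7 and 16 after rescaling. Of all genes tested 31.4% were higher and 18.0% lower, so the count of higher members did not exceed that share. Ddit3, encoding CHOP, rose from 35.9, 35.6 and 32.8 TPM to 112, 120 and 105 TPM (1.66 ± 0.07, SE), and Ppp1r15a was higher by 1.136. Atf4 itself stood at 267, 237 and 253 TPM and at 259, 254 and 255 TPM. The synthesis genes Asns (-1.02) and Pycr1 (-1.005) were lower, as was the glutathione-degrading Chac1 (-0.94). Of 13 heat shock genes 9 were higher, among them the small heat shock protein gene Cryab (1.55) and the chaperone gene Hsp90aa1 (0.55), and Hspa8 was lower (-0.31).

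Among lysosome genes 19 of 27 were higher and none lower, with Ctsl (0.73) and the protease gene Ctsd (0.66) among them. Of 29 autophagy genes 11 were higher and 7 lower, or 8 and 9 after rescaling, near the 31.4% and 18.0% of all genes; Gabarapl1 and Becn1 were higher by 0.50 and 0.51, and Bnip3 (-1.005) was lower. Of 29 ribosome biogenesis genes 14 were higher and 3 lower, with Utp4 at 0.90. Of 30 matrix and mesenchymal genes 7 were higher and 9 lower, against 31.4% and 18.0% of all genes: Col1a2 (1.29) and Dcn (1.18) were higher, and besides Acta2 and Ogn the myosin light chain gene Myl9 (-1.28) and Tpm1 (-0.41) were lower. Acta2 averaged 6.35 ± 0.349 TPM in untreated cells and 141 ± 19.8 TPM with trametinib (SD, n = 3). Of 13 mitochondrially encoded mRNAs 3 were higher and 3 lower, near those shares. The higher calls were lost after rescaling; mt-Nd3 (-0.33) was lower.

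**Figure D4:**
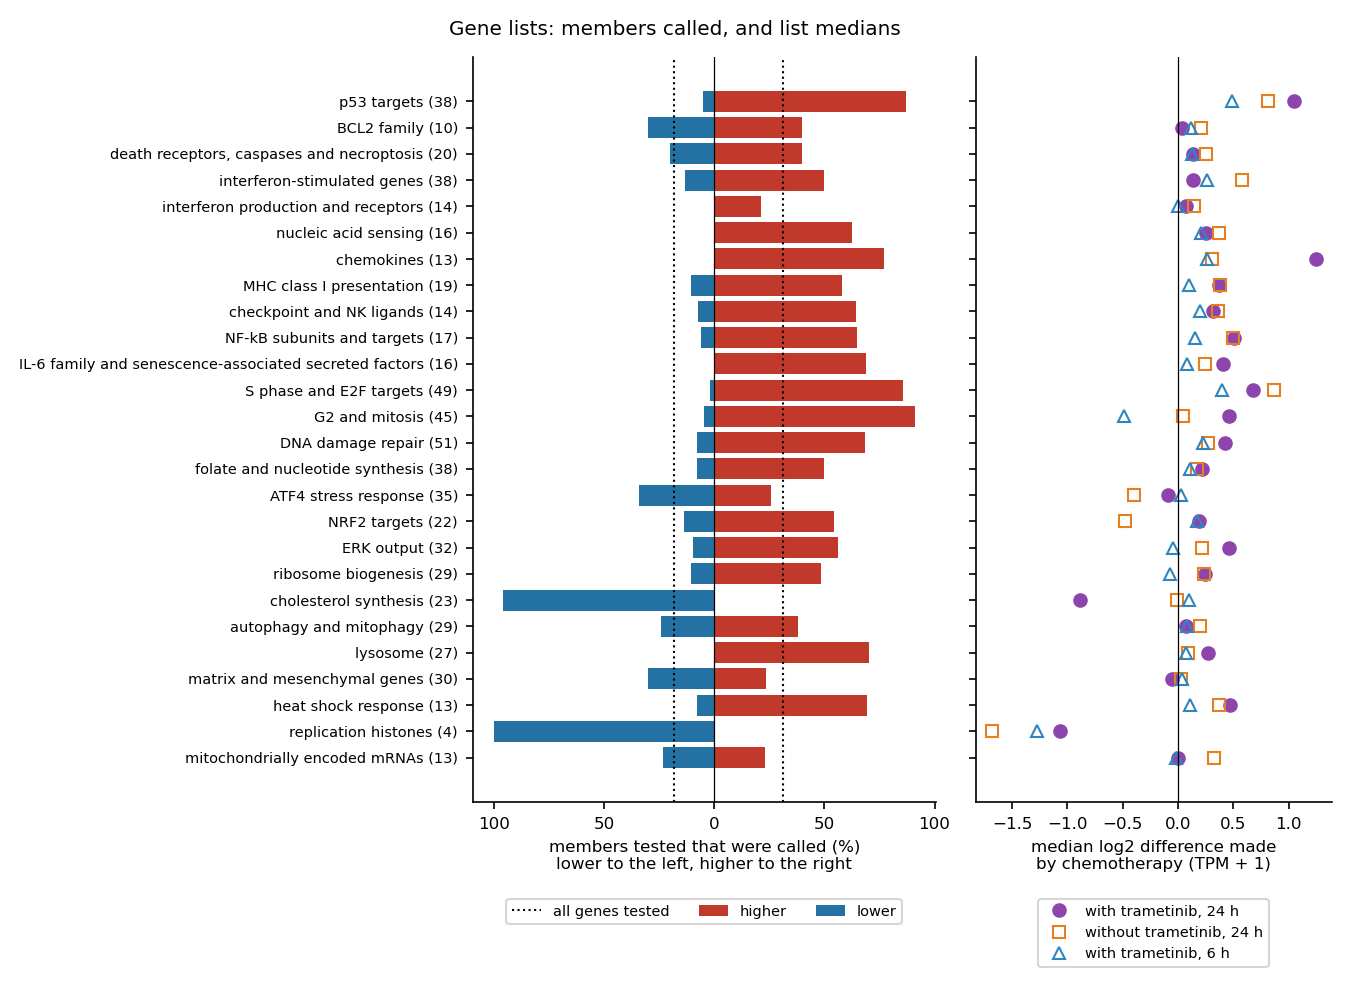
Left, percent of the tested members of each list (number in brackets) called higher (right of 0) or lower (left of 0), with dotted lines at 31.4% and 18.0%, the shares over all genes tested. Right, list medians of the log2 difference made by chemotherapy on trametinib at 24 h, without trametinib at 24 h and on trametinib at 6 h; the cholesterol list stands at -0.88 in the first and near 0 in the others.

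The genes with the largest differences between the responses with and without trametinib included cell cycle and metabolic genes. Txnip, an inhibitor of glucose uptake, averaged 24.7 ± 1.15 TPM in untreated cells, 621 ± 33.0 with chemotherapy, 281 ± 26.3 with trametinib and 883 ± 39.9 with the combination (SD, n = 3), a difference of differences of -2.94 ± 0.19 (SE). The cyclin gene Ccne2 (-2.12) and Atg9b (-1.93) also had a smaller difference with trametinib. Calb1 (-5.34 ± 0.98, SE) and Phkg1 (-2.31 ± 0.43, SE) belong here by the naming rule, but Calb1 varied widely, at 40.0, 19.2 and 44.1 TPM and at 4.93, 6.92 and 21.7 TPM. Its libraries overlap, and the calls of both genes in the main comparison were lost when single libraries were left out. Areg (2.47), Ptgs2 (2.25), Nqo1 (2.10), Atf3 (2.09) and Ugt1a6a (2.09) had a larger difference with trametinib.

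Between the times, 2406 genes had a higher difference at 24 h than at 6 h (19.1%) and 1535 a lower one (12.2%). Atf3 (2.78), Cxcl10 (2.63), Mmp3 (2.56), the keratin gene Krt13 (2.49) and Slc16a6 (2.43) led the first group. Acta2 (-2.58), Cdh13 (-1.88), Aspn (-1.75), Nrbp2 (-1.70) and the protease gene Adamts1 (-1.59) led the second. Acta2 averaged 59.3 ± 3.05 TPM with trametinib at 6 h and 64.7 ± 5.01 TPM with the combination at 6 h (SD, n = 3).

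Genes spanning over 300 kb were lower more often than shorter ones. Genes were grouped by genomic span, from the first to the last annotated base. Of 216 genes over 300 kb, 44.0% were lower and 17.1% higher (median -0.195), against 17.1% and 23.4% of 3823 genes under 10 kb (median 0.021). In the bins of 10 to 30, 30 to 100 and 100 to 300 kb, 17.0%, 17.3% and 21.2% were lower. In the same bins 37.4%, 35.1% and 28.8% were higher. Among the 12 largest falls, Cdh13, Gtdc1, Cmss1, Slc9a9, Msra, Gpc6 and Cpq span over 300 kb. Single combination libraries gave medians of -0.240 to -0.152 for the longest genes. Without trametinib that median was -0.712, and of the 216 genes 121 had a higher difference with trametinib and 6 a lower one. On trametinib at 6 h it was -0.389. After rescaling, the medians under 10 kb and from 100 to 300 kb changed sign, to -0.042 and -0.037, and that over 300 kb was -0.266.

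**Figure D5:**
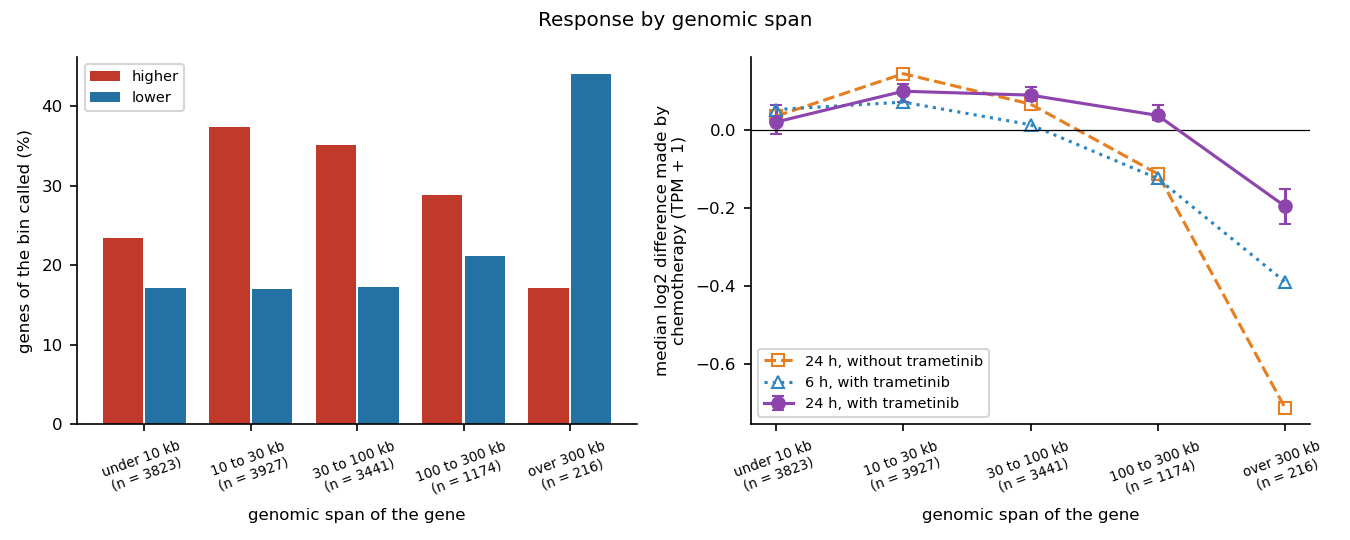
Left, percent of tested genes called higher or lower in 5 bins of genomic span (number of genes in brackets). Right, the median log2 difference made by chemotherapy, log2(TPM + 1) scale, in each bin; bars on the filled circles run from the lowest to the highest of the 3 combination libraries, and the median over 300 kb is -0.195 with trametinib at 24 h and -0.712 without it.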

How the data were processed

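RNA from 24 LLC1 libraries (8 groups of 3) was made into stranded poly(A) libraries, per the labels' protocols. The authors deposited TPM per transcript; the tools were bcl2fastq 2.17.1.14 for demultiplexing and kallisto 0.45 for quantification, on GRCm38, per the submitters' processing notes. Strand setting, filters and the version of the transcript set are not given in the sources used here. Depth is unknown, so the DESeq2 test that the series' design text names could not be run on TPM.

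Transcripts were summed per gene with GENCODE M21 (79662 of 82934 matched, in 28328 genes); unmatched transcripts held 4.45% to 5.98% of TPM and were left out. The 12581 genes that reached 1 TPM in 3 or more libraries were tested with limma 3.58.1 (R 4.3.3) on log2(TPM + 1), which understates changes of low genes, with 1 mean per group over all 24 libraries, 16 residual degrees of freedom, a variance trend and two-sided Benjamini-Hochberg adjusted p-values under 0.05. On simulated data for the 24 h comparison (12581 genes), 27, 43, 47 and 50 of 50 genes changed 1.25, 1.5, 2 and 4-fold were called, and 8 others. The changed genes had a mean of 5 TPM or more, so these counts do not cover lower genes. Noise was normal and independent between genes, and far fewer genes were changed than were called in the data. Overlap between genes on the genome was not checked. Promoters came from RefSeq (GRCm38.p6; 9150 of 12574 symbols matched).

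The members, the 26 lists, the motifs and the rules were chosen with earlier results of these data known. Named genes were, by rule, the 12 largest rises and falls at 5 TPM or more without overlap (predicted genes, pseudogenes and noncoding genes skipped), Cxcl10, from each list its first 3 members and, per direction, up to 4 called members of lowest p, and the 5 largest differences per direction of each contrast of contrasts. The rule gave 227 genes, all carried through the alternatives; those printed are a choice made after values were seen, and a few items are not reported here. A gene counted under 2 parts of the rule is described once. Contrasts of contrasts are reported for the genes the rule names there and for the member of each list with the smallest p, a choice made after values were seen to keep the values few. Alternatives were another pseudocount, 2 other level filters, rescaling, only the groups compared, a replicate block, Bonferroni adjustment and leaving out each library.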

Additional observations from a re-analysis of the deposited data

Results flagged for a closer look

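The difference made by chemotherapy was compared directly between backgrounds and between times, and each value below is a difference of log2 differences whose limma adjusted p was under 0.05. With trametinib against without it at 24 h, 26 of the 33 genes examined this way passed, of which 16 also passed Bonferroni adjustment. The difference was lower with trametinib for Calb1 (-5.34), Txnip (-2.94), Phkg1 (-2.31), Ccne2 (-2.12), Atg9b (-1.93), Acta2 (-1.63), Nsdhl (-0.95), Rpa2 (-0.75), mt-Nd3 (-0.49), Gabarapl1 (-0.18). It was higher with trametinib for B2m (0.23), Irf2 (0.26), Utp4 (0.27), Kif20a (0.32), Gsdmd (0.33), Mavs (0.34), Dusp1 (0.36), Pvr (0.53), Tnfaip3 (0.93), Mmp3 (1.46), Cxcl10 (1.47), Atf3 (2.09), Ugt1a6a (2.09), Nqo1 (2.10), Ptgs2 (2.25), Areg (2.47). The calls of Gsdmd, Utp4 and Gabarapl1 were lost when single libraries were left out.

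At 24 h against 6 h on trametinib, 24 of 31 genes passed, 20 of them also with Bonferroni adjustment. The difference was lower at 24 h for Acta2 (-2.58), Cdh13 (-1.88), Aspn (-1.75), Nrbp2 (-1.70), Adamts1 (-1.59), H1f0 (-1.11), Nsdhl (-1.06), Mthfd1l (-0.95). It was higher at 24 h for B2m (0.24), Rpa2 (0.30), Ctsd (0.41), Pvr (0.46), Nqo1 (0.55), Utp4 (0.67), Irf2 (0.69), Kif20a (1.72), Tnfaip3 (1.79), Dusp1 (1.87), Pmaip1 (2.14), Slc16a6 (2.43), Krt13 (2.49), Mmp3 (2.56), Cxcl10 (2.63), Atf3 (2.78). The call of B2m was lost after rescaling (0.190). The genes were chosen with their values known, and several for the size of this difference, so the number that passed is a description.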

How the results depend on the processing

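Values are counts of called members of a list or median log2 differences by span. Differences by background are with minus without trametinib, and those by time 24 h minus 6 h. Counts given here differ from the reported ones by over 1.5 times, and medians by more than the spread between libraries. The cause of these changes was not tested. With Bonferroni adjustment the counts became all genes higher 1427, all genes lower 577, all genes by background higher 459, all genes by background lower 362, all genes by time higher 486, all genes by time lower 242, p53 targets lower 0, BCL2 family higher 2, BCL2 family lower 0, death receptors lower 0, interferon-stimulated genes higher 7, interferon-stimulated genes lower 0, nucleic acid sensing higher 2, MHC class I presentation higher 4, MHC class I presentation lower 0, checkpoint and NK ligands higher 3, checkpoint and NK ligands lower 0, secreted factors higher 6, S phase and E2F targets lower 0, G2 and mitosis higher 26, G2 and mitosis lower 0, DNA damage repair higher 23, DNA damage repair lower 1, folate and nucleotide synthesis higher 11, ATF4 stress response higher 4, ATF4 stress response lower 4, NRF2 targets higher 6, NRF2 targets lower 0, ribosome biogenesis higher 4, ribosome biogenesis lower 0, autophagy and mitophagy higher 6, autophagy and mitophagy lower 1, lysosome higher 10, matrix and mesenchymal genes higher 3, matrix and mesenchymal genes lower 3, heat shock response higher 5, heat shock response lower 0, replication histones lower 2, mitochondrial mRNAs higher 0, mitochondrial mRNAs lower 0, p53 targets higher by background 6, p53 targets lower by background 2, S phase and E2F targets higher by background 1, S phase and E2F targets lower by background 8, G2 and mitosis higher by background 10, G2 and mitosis lower by background 0, interferon-stimulated genes lower by background 5, NRF2 targets higher by background 11, p53 targets higher by time 11, p53 targets lower by time 1, cholesterol synthesis lower by time 14. Without the level filter the counts became p53 targets lower 1, G2 and mitosis lower 1, NRF2 targets lower 1, mitochondrial mRNAs higher 1. Among genes with a mean of 5 TPM or more, where fewer were tested, values became p53 targets lower 1, death receptors lower 2, interferon-stimulated genes lower 2, chemokines higher 4, checkpoint and NK ligands higher 5, NF-kB subunits and targets higher 7, secreted factors higher 6, interferon-stimulated genes lower by background 13, NRF2 targets lower by background 1, span over 300 kb -0.251. Fitted on the groups compared alone, counts became p53 targets lower 1, checkpoint and NK ligands lower 2, NRF2 targets lower 1, mitochondrial mRNAs higher 1, NRF2 targets lower by background 1. After rescaling, values became death receptors lower 7, interferon receptors lower 1, nucleic acid sensing higher 6, checkpoint and NK ligands lower 2, S phase and E2F targets lower 2, folate and nucleotide synthesis lower 8, ribosome biogenesis lower 5, lysosome lower 2, mitochondrial mRNAs higher 0, interferon-stimulated genes higher by background 1, NRF2 targets lower by background 1, span under 10 kb -0.042, span 10 to 30 kb 0.026, span 30 to 100 kb 0.014, span 100 to 300 kb -0.037, span over 300 kb -0.266. With the replicate number as a block there were 3805 genes higher and 2146 lower, and counts became lysosome lower 1, mitochondrial mRNAs higher 1. Leaving out 1 library at a time gave ranges of 1 to 2 for p53 targets lower, 0 to 2 for BCL2 family lower, 3 to 5 for interferon-stimulated genes lower, 6 to 9 for nucleic acid sensing higher, 1 to 2 for MHC class I presentation lower, 0 to 1 for S phase and E2F targets lower, 1 to 2 for G2 and mitosis lower, 2 to 5 for DNA damage repair lower, 3 to 5 for folate and nucleotide synthesis lower, 1 to 2 for NRF2 targets lower, 1 to 3 for ribosome biogenesis lower, 0 to 2 for mitochondrial mRNAs higher, 1 to 3 for G2 and mitosis lower by background, 0 to 1 for interferon-stimulated genes higher by background, 0 to 1 for NRF2 targets lower by background, 0.053 to 0.109 for span 30 to 100 kb, 0.001 to 0.059 for span 100 to 300 kb, -0.239 to -0.139 for span over 300 kb. Single genes whose sign turned, none of them called in the comparison concerned, were Ifit2 (-0.104 to 0.014 with 1 library left out), Cd276 (-0.050 to 0.054 with 1 library left out), Fancc (-0.001 to 0.259 with 1 library left out), Atf4 (-0.022 to 0.066 with 1 library left out), Dusp6 (-0.065 to 0.110 with 1 library left out), Col1a1 (-0.194 to 0.142 with 1 library left out), Mavs by time (-0.013 to 0.035 with 1 library left out), Cryab by time (-0.026 to 0.336 with 1 library left out), and after rescaling H2-K1 (-0.008), Cd276 (-0.073), Atf4 (-0.058), Dusp6 (-0.056), Mavs by time (-0.037). Of 207 named genes called, 30 lost the call in at least 1 alternative other than Bonferroni, and 141 passed Bonferroni. Deviations from group means correlated at 0.183, -0.037 and 0.007 for replicates with the same number, and at -0.189 to 0.165 for the other pairs. With 3 libraries in each of the 2 groups this check cannot tell whether the numbers pair the samples. List counts by background and by time were run for the lists whose counts are given; called shares by span were not run under the alternatives. Depth is unknown, so no counting error can be given.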
